A study of Mus musculus with 10 samples.

Results

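The genes described here carry out the uptake of filtered protein by the kidney's proximal tubule: the receptors Lrp2 (megalin), Cubn (cubilin) and Lrp1, the cubilin partner Amn (amnionless), the adaptor Dab2, the endosomal chloride and proton exchanger Clcn5, the inositol lipid phosphatase Ocrl and the receptor chaperone Lrpap1. In that order their Entrez Gene IDs are 14725, 65969, 16971, 93835, 13132, 12728, 320634 and 16976. They were chosen by name, with earlier results of these data known, and all 8 of the 8 listed had a row among the 16475 gene rows of the array table. The study compared BKS db/db mice, in which a mutation on both copies of the leptin receptor gene leads to obesity and diabetes, with nondiabetic db/m littermates, which carry the mutation on 1 copy. RNA came from kidney cortex freed of glomeruli at 24 weeks of age, the labels give no treatment for either group and state no sex, and each of the 5 db/db and 5 db/m mice gave 1 Affymetrix array. The series' title concerns metabolic change in the tissues that diabetes damages, and here the db/db and db/m levels of these 8 genes were set side by side.

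Megalin and cubilin sit in the brush border of the proximal tubule and bind albumin, vitamin carrier proteins, hormones and many other filtered proteins. Cubilin has no membrane-spanning part of its own and reaches the surface with amnionless, while Lrpap1 escorts megalin and Lrp1 through the endoplasmic reticulum. After clathrin-dependent internalisation, in which Dab2 links the receptors to the coat, cargo passes to acidified endosomes and lysosomes and the receptors return to the surface; loss of CLCN5 or OCRL in people causes Dent disease or Lowe syndrome, with loss of small proteins in urine.

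The promoters of Lrp2, Cubn and Amn are shown because these genes make up the brush border receptor. A further reason was that Cubn minus Lrp2 and Cubn minus Amn did not overlap between the groups. That was seen once the values were known and was not tested. Each sequence is the run of 250 bases just before the annotated start of transcription, from RefSeq on build GRCm38.p6, 5′ to 3′ on the gene's strand, and lies outside the transcribed part of its gene. The windows are chr2:69586030-69586279 for Lrp2 (minus strand), chr2:13491877-13492126 for Cubn (minus strand) and chr12:111270846-111271095 for Amn (plus strand). Capitals mark matches to the GC box GGGCGG, which Sp1-type factors bind, or to TAATNATTA, the inner part of the inverted repeat bound by HNF1 factors, on either strand.
Lrp2: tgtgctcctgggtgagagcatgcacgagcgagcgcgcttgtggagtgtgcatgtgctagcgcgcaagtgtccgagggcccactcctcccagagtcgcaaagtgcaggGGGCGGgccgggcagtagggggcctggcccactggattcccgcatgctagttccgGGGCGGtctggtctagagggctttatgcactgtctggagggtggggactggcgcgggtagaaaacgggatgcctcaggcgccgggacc
Cubn: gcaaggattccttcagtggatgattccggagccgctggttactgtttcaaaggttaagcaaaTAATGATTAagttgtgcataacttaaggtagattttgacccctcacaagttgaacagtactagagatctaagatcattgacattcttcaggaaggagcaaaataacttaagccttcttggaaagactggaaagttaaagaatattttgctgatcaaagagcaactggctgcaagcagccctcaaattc
Amn: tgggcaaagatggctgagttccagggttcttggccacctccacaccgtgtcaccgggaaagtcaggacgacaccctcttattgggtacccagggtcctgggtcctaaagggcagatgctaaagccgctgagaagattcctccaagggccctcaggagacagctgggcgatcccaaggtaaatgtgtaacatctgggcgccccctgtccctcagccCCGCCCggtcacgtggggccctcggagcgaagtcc
The Lrp2 window held 2 GC boxes and the Amn window 1, in reverse, whereas the Cubn window held 0 GC boxes and 1 match to the HNF1-type letters; the motifs do not overlap. The 8 genes had 10 promoter windows, and 6 of the 8 genes, all but Cubn and Dab2, held the GC box in at least 1 window. The relation of these letters to the levels of the genes was not tested. GC content was 66.4% for Lrp2, 61.2% for Amn and 39.6% for Cubn. Among 32851 RefSeq promoter windows of the same length 32.7% held the GC box and 0.588% the HNF1-type letters, so the second was uncommon. These shares count single windows, whereas the 6 of 8 counts genes, so the 2 are not on the same unit. A match describes the letters only, and whether any factor binds there was not measured.

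The values are log2 expression levels; a difference of 1 is a change of 2-fold, and levels of different genes cannot be compared because each gene has its own probes. The array medians lay between 8.46 and 8.66. The array of db/db 1 stood apart from the rest: across genes its Pearson r with the other arrays was 0.938 to 0.962, against a lowest r of 0.985 among the other 9. It also stood apart in the markers of several cell types, which are given below with the members. Every comparison is therefore given with all arrays and again without db/db 1. Over all 16475 genes, 488 were higher and 584 lower in db/db with all arrays, and 1127 higher and 977 lower without db/db 1. With each array centred on its median the splits were 363 to 751 and 910 to 1309, so the share of higher calls depends on the scaling. The number of arrays limits the precision.

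None of the 8 genes passed the test for a difference between db/db and db/m. In the limma fit over all genes with Benjamini-Hochberg adjustment, 0 of 8 passed an adjusted p of 0.05, against 6.51% of all genes, and the lowest adjusted p among them was 0.372. Without db/db 1 it was again 0 of 8, against 12.8% of all genes, with a lowest adjusted p of 0.143. At an unadjusted p under 0.05 the counts were 0 and 2, the latter being Cubn and Ocrl, beside 21.5% and 26.5% of all genes, so the second is close to the share over all genes. The median difference over the 8 genes was 0.02 with all arrays and 0.05 without db/db 1, beside -0.03 and -0.01 over all 16475 genes tested. The differences ran from -0.22 to 0.31 with all arrays and from -0.09 to 0.29 without db/db 1. Exact two-sided permutation tests of single genes, unadjusted, gave their lowest p of 0.0397 at Lrpap1 with all arrays and 0.0159 at Cubn without db/db 1; the smallest p possible was 0.00794 in both designs.

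**Figure D1:**
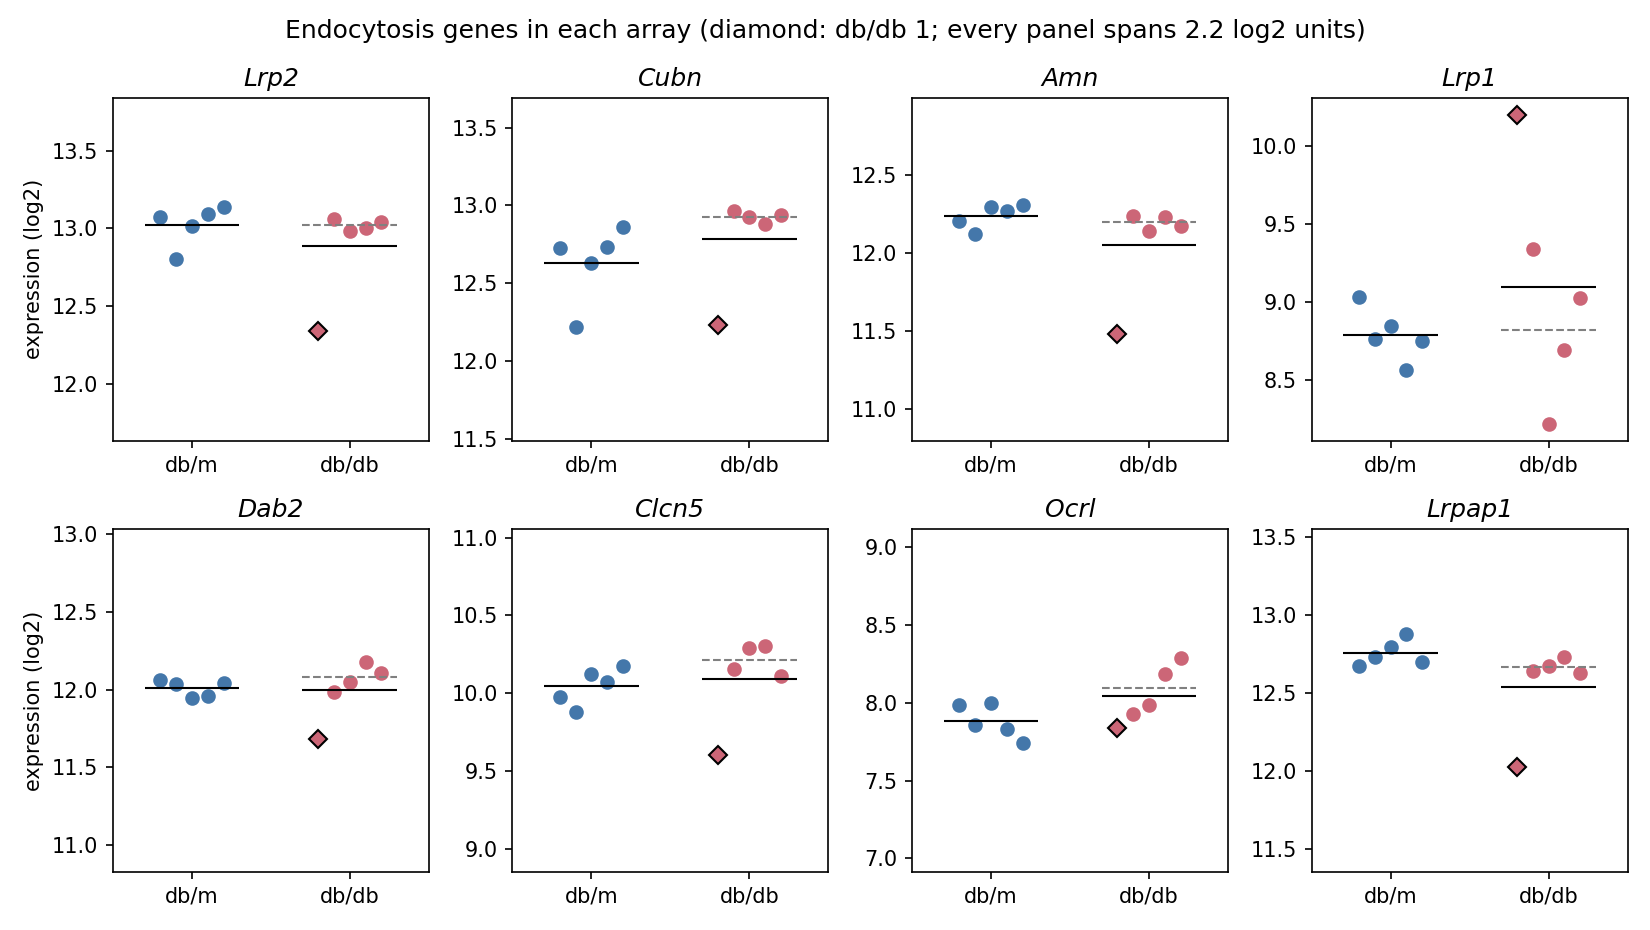
Expression (log2) of the 8 genes in each array, by group; circles and diamonds are single mice, the diamond is db/db 1, the solid line is the group mean and the dashed line the db/db mean without db/db 1. The y axes do not start at 0, and all panels span the same number of log2 units; db/db 1 lies lowest of the db/db mice in every gene but Lrp1, where it lies highest.

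Lrp2, the megalin gene and the main receptor of the group, was measured at 13.07, 12.80, 13.02, 13.10 and 13.14 in db/m mice 1 to 5. In db/db it stood at 12.34 in mouse 1 and at 13.06, 12.98, 13.00 and 13.04 in mice 2 to 5. The db/db mice other than mouse 1 lay within the range of db/m, and mouse 1 lay below every other array. The difference was -0.14 ± 0.14 (SE, 5 mice per group, limma adjusted p = 0.617). Without db/db 1 it was 0.00 ± 0.08 (adjusted p = 0.989), with a 95% interval from -0.17 to 0.17, or 0.888-fold to 1.12-fold. The markers of the S1 and S2 segments were also low in db/db 1, with a mean of -0.67 relative to db/m. In bulk tissue fewer cells of a type and less RNA per cell cannot be told apart, and the part of these markers in the values of Lrp2 and the other members was not tested.

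Cubn, the gene of the peripheral receptor cubilin, stood at 12.73, 12.22, 12.63, 12.74 and 12.86 in db/m mice 1 to 5. In db/db mice it was 12.23 in mouse 1 and 12.96, 12.92, 12.88 and 12.94 in mice 2 to 5. These 4 db/db mice all lay above every db/m mouse, while db/db 1 lay beside the lowest, db/m 2. The difference was 0.15 ± 0.17 with all arrays (limma adjusted p = 0.639) and 0.29 ± 0.12 without db/db 1 (adjusted p = 0.143, unadjusted p = 0.032), with a 95% interval from 0.03 to 0.56. Groups that did not overlap, as in Cubn without db/db 1, were found in 15.4% of all genes in that comparison and in 10.2% with all arrays, so 1 of 8 members apart is close to the share over all genes. Without db/m 2 as well, the difference was 0.19 (limma adjusted p = 0.104).

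Amn, which carries cubilin to the membrane, was at 12.20, 12.12, 12.30, 12.27 and 12.31 in db/m. In db/db it was at 11.48 in mouse 1 and at 12.24, 12.14, 12.23 and 12.17 in mice 2 to 5. As with Lrp2, mice 2 to 5 fell inside the db/m range and mouse 1 was far below it. The difference was -0.19 ± 0.14 (limma adjusted p = 0.489), and -0.04 ± 0.06 without db/db 1 (adjusted p = 0.722, 95% interval -0.18 to 0.09).

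Lrp1, a broadly expressed endocytic receptor of macrophages, fibroblasts, smooth muscle and liver, behaved differently from the receptors of the brush border. Its db/m values were 9.04, 8.77, 8.84, 8.56 and 8.75, and its db/db values were 10.20, 9.34, 8.22, 8.69 and 9.03 in mice 1 to 5. The db/db mice spread to both sides of db/m, with mouse 1 highest and mouse 3 lowest, and the SD was 0.75 in db/db against 0.17 in db/m. The difference was 0.31 ± 0.31 (limma adjusted p = 0.615), or 0.03 ± 0.20 without db/db 1 (adjusted p = 0.955), and with arrays weighted by their quality it was -0.01. Its 95% interval without db/db 1, -0.42 to 0.47, was the widest of the 8.

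Dab2, the adaptor between receptor tails and clathrin, was at 11.95 to 12.06 in db/m, the narrowest range of the 8 genes in that group. In db/db it was at 11.68 in mouse 1 and at 11.99, 12.05, 12.18 and 12.11 in mice 2 to 5. The groups overlapped, with a difference of -0.01 ± 0.09 (limma adjusted p = 0.965) and 0.07 ± 0.06 without db/db 1 (adjusted p = 0.537).

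Clcn5, which exchanges chloride for protons during endosomal acidification, had db/m values of 9.97, 9.88, 10.13, 10.07 and 10.17. Its db/db values were 9.60, 10.15, 10.29, 10.30 and 10.11. Mice 3 and 4 lay above db/m, mouse 1 below it, and the other two within it. The difference was 0.05 ± 0.13 (limma adjusted p = 0.869), and 0.17 ± 0.08 without db/db 1 (adjusted p = 0.206, 95% interval -0.01 to 0.35).

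Ocrl, whose product removes a phosphate from inositol lipids on endosomes, had values of 7.99, 7.86, 8.0, 7.83 and 7.74 in db/m. Its db/db values were 7.84, 7.93, 7.99, 8.18 and 8.29. Only mice 4 and 5 of the db/db group lay above the db/m range, and db/db 1 lay inside that range, as it did for Cubn. The difference was 0.16 ± 0.10 (limma adjusted p = 0.382), and 0.21 ± 0.09 without db/db 1 (adjusted p = 0.175, unadjusted p = 0.044).

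Lrpap1, the chaperone that keeps ligands off new megalin and Lrp1, was at 12.67, 12.73, 12.79, 12.88 and 12.70 in db/m. In db/db it was at 12.02 in mouse 1 and at 12.64, 12.67, 12.73 and 12.63 in mice 2 to 5. All 5 db/db mice lay below the db/m mean of 12.76. Mice 1, 2 and 5 lay below the lowest db/m mouse and mouse 3 was level with it, while mouse 4 lay within the db/m range. The difference was -0.22 ± 0.13 (limma adjusted p = 0.372), and -0.09 ± 0.06 without db/db 1 (adjusted p = 0.424).

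**Figure D2:**
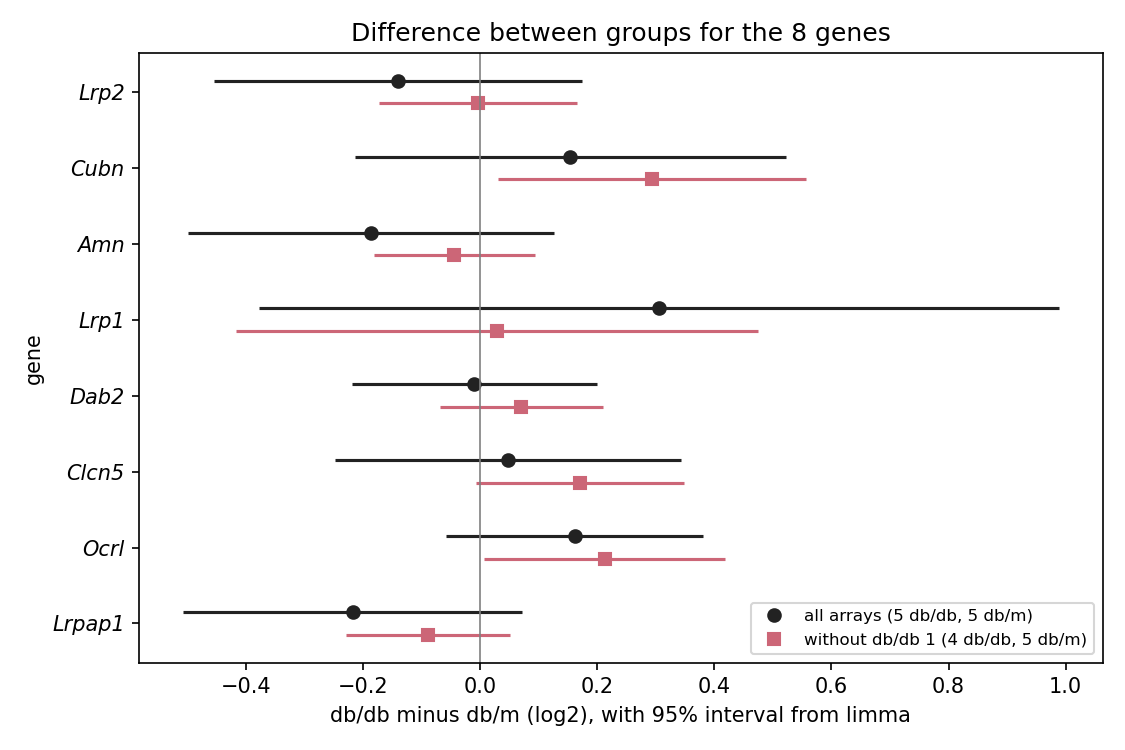
Difference between db/db and db/m (log2) for each gene with its 95% interval from limma, with all arrays (circles) and without db/db 1 (squares). With all arrays every interval spans 0; without db/db 1 those of Cubn (0.03 to 0.56) and Ocrl (0.01 to 0.42) do not, before adjustment over all genes.

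The db/db 1 array differed from the other mice in a way that the 8 genes did not share equally. Relative to the db/m mean it stood at -0.76 in Amn, -0.73 in Lrpap1, -0.68 in Lrp2, -0.44 in Clcn5, -0.40 in Cubn, -0.33 in Dab2 and -0.04 in Ocrl and 1.41 in Lrp1. The mean of 12 markers of the S1 and S2 segments, where most filtered protein is taken up, stood at -0.67 in the same array, with 12 of 12 markers below the db/m mean, and at 0.13 to 0.26 in the other db/db mice, against -0.07 to 0.07 in db/m. Without db/db 1 the differences of the single S1 and S2 markers ran from -0.21 to 0.83, so not all were higher. By limma 0 of the 12 were called with all arrays and 2 without db/db 1, both higher, against 6.51% and 12.8% of all genes. All 10 measured markers of injured tubule were above the db/m mean in db/db 1, with a list mean of 3.89. The list mean was 0.39 to 1.46 in the other db/db mice, against -0.32 to 0.58 in db/m. Mice 4 and 5 of db/db, at 0.39 and 0.45, lay within the db/m range only through db/m 4, at 0.58. The other db/m mice were at -0.32 to -0.01. By limma 4 of the 10 injury markers were called with all arrays and 5 without db/db 1, all higher, against 6.51% and 12.8% of all genes. The differences of the single injury markers ran from 0.23 to 3.20 with all arrays and from -0.21 to 2.28 without db/db 1. The mean of 12 markers of distal tubule and collecting duct stood at -0.92 in db/db 1, with 11 of 12 below the db/m mean. It was 0.26 to 0.58 in the other db/db mice, against -0.14 to 0.20 in db/m. The part of these lists in the levels of the 8 genes was not tested. In the 4 mice in which Lrp2 and Amn lay within the db/m range, the mean of 8 markers of the S3 segment stood at -2.33 to -1.50, against -0.28 to 0.28 in db/m. In db/db 1 it stood at -2.11, with 7 of 8 below the db/m mean. With all arrays the differences of the single S3 markers ran from -5.17 to 0.43, so not all were lower in db/db. By limma 4 of the 8 were called, all lower, against 6.51% of all genes.

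For Lrp1, the markers of cells that also express it are given beside its values. The mean of 10 macrophage markers was at 3.10, 0.94, -0.41, -0.61 and -0.91 in db/db mice 1 to 5, and -0.10 to 0.13 in db/m, with 10 of 10 above the db/m mean in db/db 1. The mean of 9 fibroblast markers was at 1.93, 0.37, -0.82, -0.34 and -0.32, against -0.13 to 0.05 in db/m, with 9 of 9 above in db/db 1. Mice 1 and 2 were the highest db/db mice for Lrp1 and for both lists, and mouse 3 was lowest for Lrp1 and the fibroblast list, whereas mouse 5, lowest for the macrophage list, was not low for Lrp1. The markers had db/m levels of 4.81 to 11.1 in the macrophage list and 4.57 to 10.5 in the fibroblast list, and their part in the Lrp1 values was not tested. The largest shift in db/db 1 was that of 7 neutrophil markers, with a mean of 4.64 and 7 of 7 above the db/m mean. It was at 2.28, 1.24, -0.23 and -0.29 in db/db mice 2 to 5, and at -0.31 to 0.38 in db/m. Means of 7 podocyte markers, in tissue freed of glomeruli, were 0.26 in db/db 1 and 0.48 to 0.68 in the other db/db mice, against -0.09 to 0.09 in db/m. By limma 5 of the 7 were called with all arrays and 7 without db/db 1, all higher, against 6.51% and 12.8% of all genes. Means of 10 endothelial markers were -0.01 to 0.23 in db/db, against -0.05 to 0.03 in db/m.

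**Figure D3:**
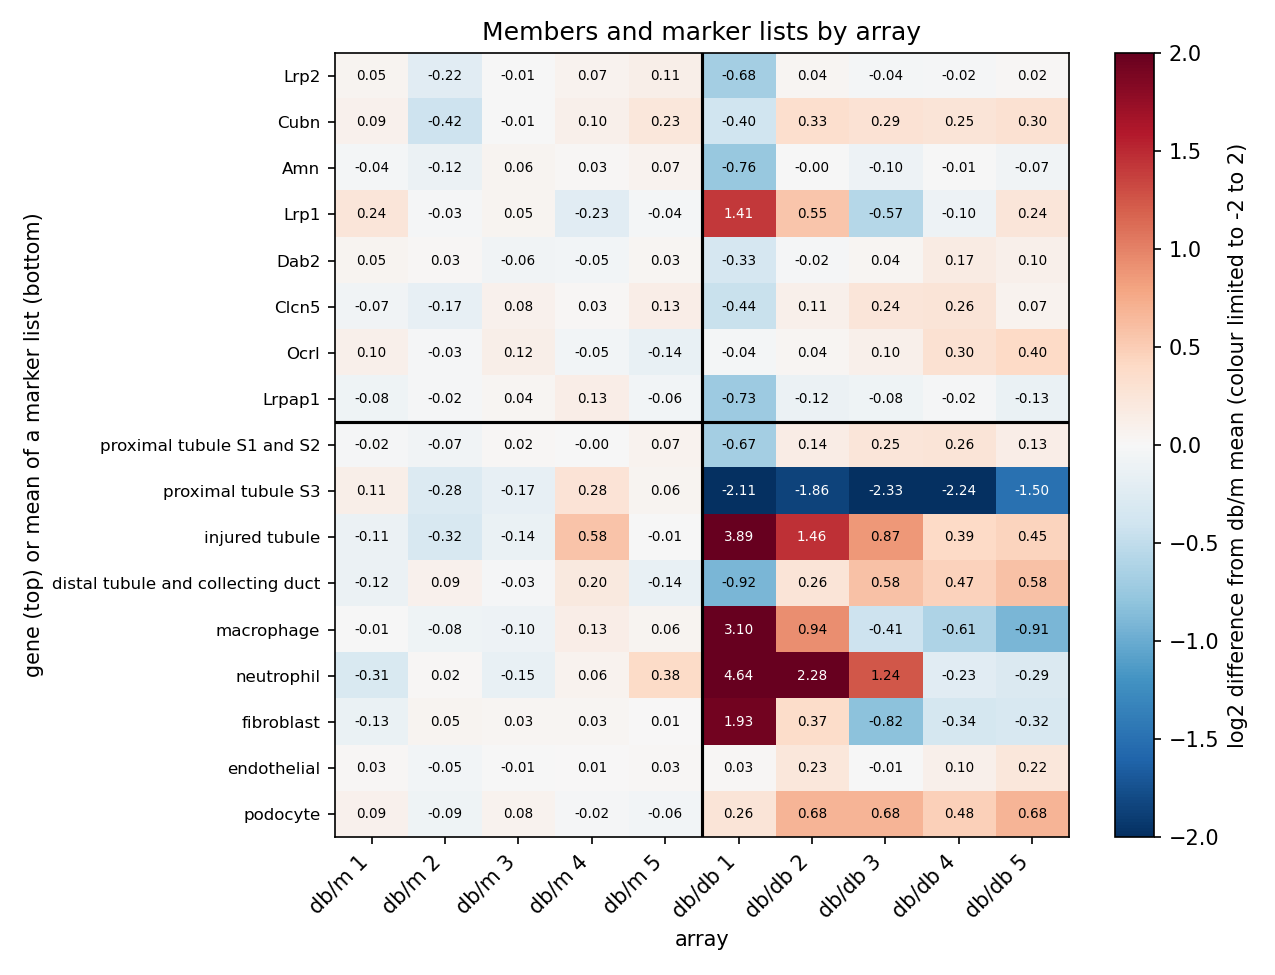
Difference from the db/m mean (log2) in each of the 10 arrays, for the 8 genes (upper block) and for the means of 9 lists of cell type markers (lower block); red is higher and blue lower, and the colour is limited as stated on the bar. The db/db 1 column is at -0.76 for Amn, -0.67 for the S1 and S2 markers and 3.10 for the macrophage markers, and the mean of the S3 markers is low in all 5 db/db arrays.

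Pairs of members were then compared within each array, so that a shift common to both genes of a pair cancels. This was done for all 28 pairs, after their values had been seen, and is given without a test. For 4 of the 28 pairs, 14.3%, the difference in all 5 db/db mice lay on 1 side of that in all 5 db/m mice. Between a member and any gene that is no member, the share was 7.49% of 131736 pairs, and for Cubn alone 5.93% of 16467. The 4 pairs share genes, so they are not separate observations.

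The difference Cubn minus Lrp2 was -0.35, -0.59, -0.39, -0.36 and -0.27 in db/m mice 1 to 5 and -0.11, -0.10, -0.06, -0.12 and -0.10 in db/db mice 1 to 5. The db/db mice with Lrp2 in the db/m range and db/db 1, in which both receptors were low, lay close together and above all db/m mice. The mean was -0.10 ± 0.02 in db/db and -0.39 ± 0.12 in db/m (SD, 5 mice per group), a shift of 0.29. The sign of such a difference carries no meaning, since the genes have different probes, and only the shift between groups does.

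Cubn minus its partner Amn was 0.52, 0.09, 0.33, 0.47 and 0.55 in db/m, and 0.75, 0.72, 0.78, 0.65 and 0.76 in db/db. The shift was 0.34, again with db/db 1 among the other db/db mice. For Clcn5 minus Amn the db/m range was -2.25 to -2.13 and the db/db range -2.08 to -1.85, a shift of 0.23. Clcn5 minus Lrpap1 was at -2.86 to -2.53 in db/m and -2.51 to -2.39 in db/db, a shift of 0.27 with a gap of only 0.01 between the groups. Thus Cubn was higher relative to Lrp2 and Amn, and Clcn5 relative to Amn and Lrpap1, in every db/db mouse than in any db/m mouse. With quantile normalisation repeated 3 pairs were apart, and Clcn5 minus Lrpap1 overlapped.

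**Figure D4:**
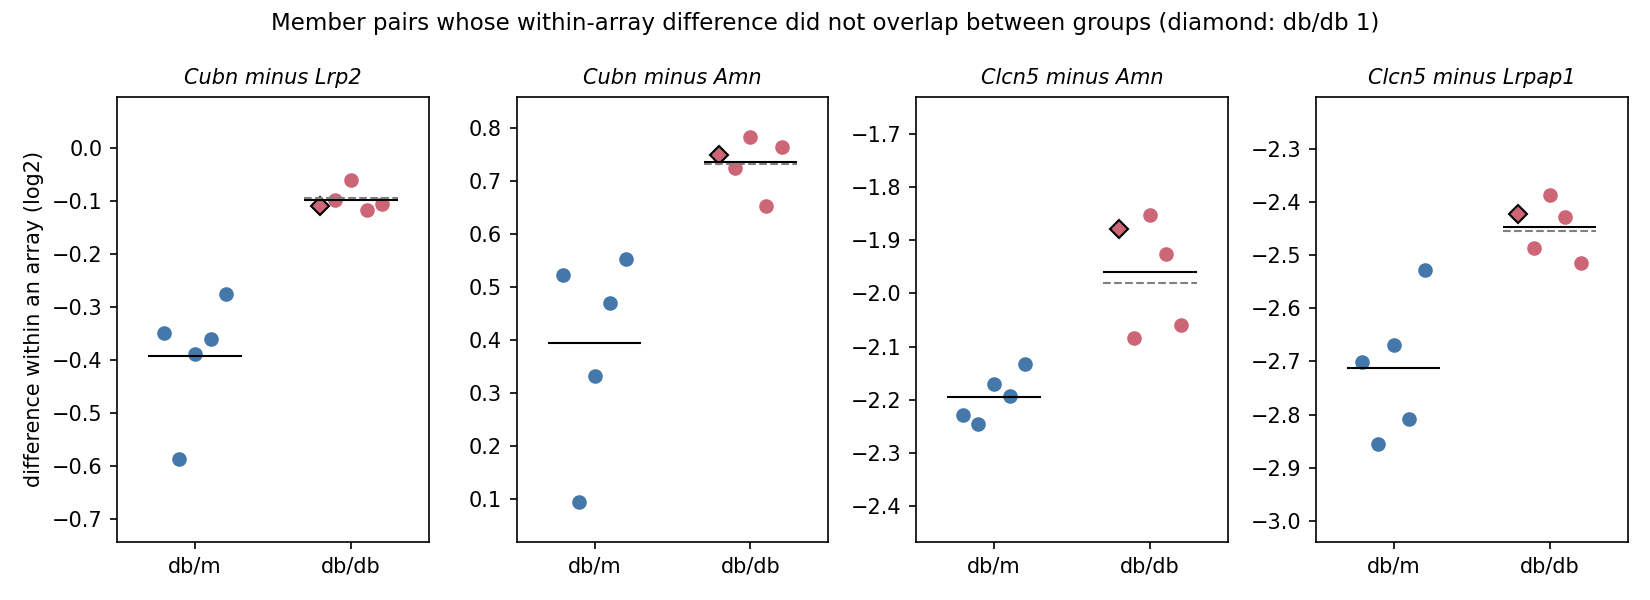
Within-array difference (log2) between the genes of the 4 pairs whose groups did not overlap; symbols and lines are as for the single genes, the diamond being db/db 1, and the y axes do not start at 0. For Cubn minus Lrp2 the 5 db/db mice lie between -0.12 and -0.06 and the 5 db/m mice between -0.59 and -0.27.

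The profiles over the 10 arrays were compared by the root mean square difference, in log2 units, after each gene was centred on its own mean. Nearest to Lrp2 among 15779 named genes were Tmem116 (0.045), Hyi (0.047), Amn (0.062), Fitm2 (0.065) and Vwa8 (0.067), beside a median of 0.255 over all of them. Amn was in place 3 among all genes in nearness to Lrp2, followed among the members by Lrpap1 (0.111) in place 222 and Clcn5 (0.130) in place 614, while Cubn (0.165) was in place 2014 and Lrp1 (0.685) in place 14455. Nearest to Cubn were the Bardet-Biedl gene Bbs9 (0.075), Vps13b (0.088), the organic anion efflux pump gene Abcc2 (0.097), Bola1 (0.098) and Cckbr (0.104), and among the members Clcn5 (0.138, place 56). These places depend on db/db 1. Without it, over 9 arrays, in a comparison added after the data were seen, Amn was in place 80 (0.062) in nearness to Lrp2 and the nearest gene was Ttc36 (0.033), while Clcn5 was in place 249 (0.145) in nearness to Cubn and the nearest gene was Lamb1 (0.054); both nearest genes were named after their values were seen. Flat profiles are close to each other by this measure, and it is a description only.

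Other genes of the uptake route were taken from lists of coat, sorting, lysosome, receptor family and ligand genes. Of 16 measured coat and adaptor genes 0 rose and 0 fell in either limma fit, with 1 gene at an unadjusted p under 0.05 with all arrays and 0 without db/db 1, beside 21.5% and 26.5% of all genes. The median difference was 0.03, or 0.07 without db/db 1. The nearest to the threshold was Gipc1, a scaffold that binds the megalin tail, with a db/m mean of 10.95 ± 0.19 and a db/db mean of 11.18 ± 0.09 (SD, 5 mice each), a difference of 0.23 ± 0.10 (adjusted p = 0.205), or 0.19 without db/db 1 (adjusted p = 0.239).

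Among 22 measured genes of endosome sorting and recycling, 1 fell and 0 rose, in each fit, or 4.55% against 6.51% of all genes with all arrays and 12.8% without db/db 1. Rabep1, the Rab5 effector rabaptin, read 9.13, 9.01, 9.32, 9.23 and 9.26 in db/m against 8.87, 8.88, 8.98, 8.98 and 8.81 in db/db, with no overlap. It fell by 0.29 ± 0.08 (limma adjusted p = 0.0495), and by 0.28 ± 0.08 without db/db 1 (adjusted p = 0.0433). The call stood at the threshold, and of 10 fits that each left out 1 array it was kept in those leaving out db/m 2 or db/db 1, with adjusted p from 0.0699 to 0.133 in the others. With db/db 1 left out already, it was kept only when db/m 2 was dropped too. The median of the list was 0.01, or 0.00 without db/db 1.

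Of 21 measured genes of endosome acidification and lysosomes, 1 rose and 0 fell, in each fit, or 4.76% against the same 6.51% and 12.8%. Lgmn, which encodes the lysosomal protease legumain of the proximal tubule, was at 12.45, 12.58, 12.43, 12.46 and 12.53 in db/m and at 13.05, 12.92, 13.05, 12.90 and 12.59 in db/db. All 5 db/db mice lay above db/m, with mouse 5 nearest to it. It rose 1.33-fold (0.41 ± 0.09, limma adjusted p = 0.0294), and by 0.38 ± 0.09 without db/db 1 (adjusted p = 0.0255). The call was kept when db/m 2, db/db 1 or db/db 5 was dropped. The adjusted p was 0.0567 to 0.0844 when any other single array was left out, and 0.0565 when arrays were centred on their medians. The list median was 0.03, or 0.04 without db/db 1, and the other genes of the list, among them proton pump subunits and cathepsins, were not called. With all arrays the cathepsin genes Ctsb (0.34, limma adjusted p = 0.0751) and Ctsd (0.16, adjusted p = 0.339) were higher in db/db without overlap. Ctsh (-0.07) and Ctsl (0.05) overlapped. These cathepsin genes were named after their values were seen, and 10.2% of all genes did not overlap in either direction. At an unadjusted limma p under 0.05 there were 3 of the 21 genes with all arrays and 5 without db/db 1, beside 21.5% and 26.5% of all genes.

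Of 9 measured members of the LDL receptor family other than Lrp1 and Lrp2, 0 passed in either limma fit, while 3 were at an unadjusted p under 0.05 with all arrays and 5 without db/db 1, beside 21.5% and 26.5% of all genes. Lrp6, a Wnt co-receptor, was nearest, at 10.27, 9.74, 10.06, 10.15 and 10.22 in db/m and at 9.17, 9.72, 9.58, 9.65 and 9.96 in db/db. The groups overlapped through db/m 2 and db/db 5, and the difference was -0.47 ± 0.15 (adjusted p = 0.0981), or -0.36 ± 0.12 without db/db 1 (adjusted p = 0.084). The list median was 0.01, or 0.05 without db/db 1.

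The list of receptor ligands and of vitamin handling genes held most of the calls. Of 23 measured genes 6 rose and 1 fell with all arrays, 30.4% against 6.51% over all genes, and 8 rose and 1 fell without db/db 1, 39.1% against 12.8%. The list was chosen with earlier results of these data known, so these shares cannot be read as an enrichment of the uptake route. The genes that rose in both fits do not all bind megalin: they were Cyp24a1, Cyp27b1, Apoe, Apob, Clu and Plat, and Lpl fell in both; Cyp27b1, Apob, Clu and Plat were named after their values were seen, and Clu also stands in the list of injured tubule markers, which was high in db/db 1. The list median was 0.16, or 0.30 without db/db 1. Without db/m 3 the count with all arrays was 4 rises and 0 falls.

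Cyp24a1, which inactivates the vitamin D that megalin brings into the tubule, was at 10.78, 11.36, 10.83, 11.86 and 11.31 in db/m and at 11.93, 12.82, 13.12, 12.94 and 12.76 in db/db. All 5 db/db mice lay above db/m, mouse 1 by the least. It rose 2.80-fold (1.48 ± 0.26, limma adjusted p = 0.0101), or 3.20-fold without db/db 1 (1.68 ± 0.21, adjusted p = 0.00108). Apoe, a lipoprotein ligand of this receptor family, which macrophages also make, rose 2.93-fold (1.55 ± 0.31, limma adjusted p = 0.0187), and by 1.26 ± 0.20 without db/db 1 (adjusted p = 0.00346). Apoe was at 13.33, 11.84, 12.18, 11.89 and 11.64 in db/db mice 1 to 5, against 10.10 to 11.10 in db/m. The macrophage list mean was 3.10, 0.94, -0.41, -0.61 and -0.91 in the same db/db mice, against -0.10 to 0.13 in db/m. The part of macrophages in the Apoe values was not tested. The limma adjusted p of Apoe was 0.0568 without db/m 3.

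Lpl, the lipoprotein lipase that these receptors bind, was at 12.32 to 12.79 in db/m and 10.66 to 11.92 in db/db, with no overlap, and fell by 1.02 ± 0.23 (limma adjusted p = 0.03), or by 0.82 ± 0.15 without db/db 1 (adjusted p = 0.00792). With all arrays its adjusted p was 0.054 to 0.0749 without any 1 of db/m 1 to 5 or db/db 2. Stra6, which encodes the cell surface receptor for the retinol carrier Rbp4, a ligand of megalin, was at 7.28 to 8.52 in db/m and at 7.97, 8.51, 9.05, 9.03 and 9.22 in db/db. It did not pass with all arrays (0.94 ± 0.29, limma adjusted p = 0.0838) and rose 2.19-fold without db/db 1 (1.13 ± 0.25, adjusted p = 0.0155), although db/db 2 lay at the level of the highest db/m mouse.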

How the data were processed

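Kidney cortex RNA from 5 db/db and 5 db/m mice was measured on Affymetrix Mouse Genome 430 2.0 arrays. The deposited table holds the authors' log2 expression values, 1 row per Entrez Gene ID. The submitters' processing notes name RMA; its version, the probe regrouping and the build are not given in the sources used here. This method makes arrays comparable but can compress differences, and whether bright genes were affected more was not tested. Of 16539 rows, 64 Affymetrix control rows were left out; 15780 of the 16475 gene rows had a symbol in the supplied annotation, 15752 matched RefSeq (GRCm38.p6), and 695 were tested unnamed. Coordinates are given for promoter sequences only.

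Groups were compared on the values as deposited with limma 3.58.1 in R 4.3.3 (lmFit, eBayes without trend, two-sided, db/db minus db/m), with Benjamini-Hochberg adjustment over all 16475 genes and a threshold of 0.05, with and without db/db 1. The script was tested on simulated data. Alternatives were a replicate block, the dimmest 25% of genes left out, quantile normalisation, median centring, trend and robust settings, array weights, control rows included, each array left out, and exact permutation tests. Members and lists were chosen with earlier results of these data known. In each fit, and for each list, the text names at most 3 called genes, those that changed most, or else the 1 gene of lowest adjusted p; the 5 nearest genes to Lrp2 and to Cubn are also named. Of the list genes, 11 of 102 had no matched row and were not analysed here; no probe detection calls were used. Same-numbered mice did not deviate together (r -0.09 to 0.01 across genes), so the numbers were not taken as pairs. The smallest of the largest differences between any pair of arrays was 3.07 log2 units, so no array was a copy. Figures were drawn with matplotlib 3.10.9 in Python 3.11.15.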

Additional observations from a re-analysis of the deposited data

Results flagged for a closer look

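The db/db 1 array was far from the other 4 db/db arrays in 5 of the 8 endocytosis genes. By Dixon's ratio within groups of 5, it was low in Lrp2 at 12.34 (nearest db/db mouse 12.98), in Cubn at 12.23 (nearest 12.88), in Amn at 11.48 (nearest 12.14), in Clcn5 at 9.60 (nearest 10.11) and in Lrpap1 at 12.02 (nearest 12.63). The 16 genes examined, the 8 members and 8 named list genes, gave 32 groups, of which 5 were marked, all of them db/db 1 in a member. Chance alone marks about 1 in 20 groups. These marks are not independent of each other, since they concern a single array, and the group differences of these 5 genes without it stand in the report.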

How the results depend on the processing

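No member was called by limma under any alternative, in either comparison, and 243 of 264 alternative values for members kept direction and side of the threshold; 19 turned sign, and 2 passed an unadjusted exact permutation p that limma's adjusted p did not (Lrpap1 with all arrays, 0.0397, and Cubn without db/db 1, 0.0159). With all arrays, Dab2 was at 0.017 with quantile normalisation and 0.094 with array weights, and -0.054 to 0.070 when single arrays were left out; Clcn5 was at -0.020 with median centring and -0.0051 to 0.17 when single arrays were left out; Lrp1 was at -0.010 with array weights. Without db/db 1, Lrp2 was at 0.0092 with the replicate block, 0.0024 with quantile normalisation and -0.058 to 0.025 leaving out single arrays, and Lrp1 at -0.015 with median centring and -0.14 to 0.23 leaving out single arrays. The cause was not tested.

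The count of all genes called, 1072, was 393 with the replicate block and 2641 with array weights, and 490 to 2104 when single arrays were left out: 490 without db/m 3, 576 without db/m 4, 644 without db/db 2, 674 without db/db 3, 683 without db/m 5, 684 without db/m 1 and 2104 without db/db 1. Without db/db 1 it was 985 with the replicate block and 1382 to 1940 leaving out single arrays, with 1382 without db/m 3. With the replicate block the sorting list and the acidification list held 0 called genes in both comparisons, and the ligand list 2 with all arrays. The acidification list held 0 with median centring and 2 with array weights, or 2 without db/db 1 with trend and robust settings. The sorting list held 0 with trend and robust settings in both comparisons, and the other receptor family list 1 with array weights, Lrp6. Leaving out single arrays gave 0 to 1 calls in the sorting and acidification lists in both comparisons, 4 to 9 in the ligand list with all arrays, and 0 to 1 in the coat and receptor family lists without db/db 1, where Gipc1 and Lrp6 passed without db/m 2 (adjusted p = 0.0308 and 0.0187). The number of member pairs apart, 4, was 3 with quantile normalisation and 4 to 6 leaving out single arrays.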
